A study of Mus musculus with 6 samples.

Results

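The genes described here encode the constitutive proteasome, the regulatory particles that bind it and the chaperones that assemble it. They were chosen by name, as rows of the deposited table whose symbol is Psm, 1 letter from a to g, then digits and nothing after. The immunoproteasome and thymoproteasome genes Psmb8, Psmb9, Psmb10 and Psmb11 were left out. This gave 44 of the 31115 genes in the table. Levels are in FPKM, fragments scaled by annotated exon length and by library total. Of the 44, 43 had a mean of at least 1 FPKM over the 6 libraries and were tested. The exception, Psma8, encodes an alpha subunit known from testis and averaged 0.405 FPKM.

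The study compared 3 libraries labelled Ad-SPTBN1 with 3 labelled Ad-scramble. All are from mouse cells labelled neonatal cardiomyocytes, a name for heart muscle cells of newborn animals. The labels give the first group as overexpressing βII spectrin, a protein of the submembrane skeleton encoded by Sptbn1, and the second as its scramble counterpart. Both groups were in normal culture in serum-containing medium at day 2, and the labels describe neither the constructs nor the strain or the purity of the cells. Whether a group's libraries stem from separate cultures is not in the labels, so the spread behind the p-values may be technical.

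The proteasome is the main protease of the cytosol and nucleus for proteins tagged with ubiquitin. Its 20S core is a barrel of stacked rings, with outer rings of alpha subunits that gate the entry and inner rings of beta subunits, some of which cut peptide bonds. The 19S particle caps the barrel: its lid and receptors bind ubiquitin chains and remove them, and its ring of ATPases unfolds the substrate and feeds it into the core. In heart muscle the complex is known for the turnover of contractile and regulatory proteins. When proteasome activity is limiting, the transcription factor NFE2L1 is known to raise many subunit genes together through antioxidant response elements in their promoters.

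Sptbn1 went against the label. Sptbn1 (ENSMUSG00000020315, GRCm38 chr11:30099395-30268175, minus strand) measured 16.1, 16.5 and 15.7 FPKM in Ad-SPTBN1-labelled libraries, against 50.8, 48.3 and 50.1 FPKM in Ad-scramble-labelled libraries. The log2 difference was -1.57 ± 0.03 (SE, n = 3 libraries in each group, limma adjusted p = 2.72e-06), and the mean level was 32.4% of that in Ad-scramble-labelled libraries. Directions below are therefore those of Ad-SPTBN1-labelled libraries relative to Ad-scramble-labelled libraries, and say nothing of a gain of spectrin. Whether the labels were exchanged, or the construct lowered Sptbn1, was not tested. An exchange would reverse every direction given here, and a construct that lowers Sptbn1 would not. Reads recovered from the FPKM values numbered 19017122 to 19638662 in genes in Ad-SPTBN1-labelled libraries and 18775304 to 19512429 in Ad-scramble-labelled libraries. Actc1, the cardiac actin gene and a marker of cardiomyocytes, measured 46.2 ± 2.27 FPKM in Ad-SPTBN1-labelled libraries and 21.3 ± 0.405 FPKM in Ad-scramble-labelled libraries (SD, n = 3 each). The 12 listed fibroblast markers summed to 4456 to 4686 FPKM in Ad-SPTBN1-labelled libraries and 4229 to 4549 FPKM in Ad-scramble-labelled libraries. Without Col1a1, the other 11 summed to 2141 to 2212 FPKM in Ad-SPTBN1-labelled libraries and 2308 to 2334 FPKM in Ad-scramble-labelled libraries. The 15 listed cardiomyocyte markers summed to 132.2 to 137.9 FPKM in Ad-SPTBN1-labelled libraries and 80.6 to 86.9 FPKM in Ad-scramble-labelled libraries. Single fibroblast markers averaged from 15.8 FPKM (Pdgfra) to 2402 FPKM (Col1a1) in Ad-SPTBN1-labelled libraries, and from 17.9 to 2078 FPKM in Ad-scramble-labelled libraries. The fibroblast sum exceeded the cardiomyocyte sum in every library, and the share of heart muscle cells was not measured. In bulk RNA, fewer cells of a type and less RNA per cell cannot be told apart.

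The proteasome genes differed little between the groups. Of the 43 tested, 1 rose (Psmd7) and 1 fell (Psmd12) in Ad-SPTBN1-labelled libraries, which is 4.65%, against 11.0% of all 12608 tested genes (limma on log2(FPKM + 1), Benjamini-Hochberg adjusted p under 0.05). Over all tested genes 5.54% were called higher and 5.50% lower. Both shares move with the fit: with 1 library left out, 0 or 1 of the 43 and 4.93% to 6.85% of all tested genes were called, with no minimum level 1 of 44 and 2.14%, and with voom on recovered reads 3 of 43 and 17.0%. The median log2 difference was -0.01 over the 43 genes and 0.0019 over all tested genes. The median size of the difference, whatever its sign, was 0.059 for the proteasome genes and 0.082 for all tested genes, whose median level was lower, at 6.57 FPKM against 30.4 FPKM. The 43 differences ran between -0.18 and 0.12 on the log2 scale, with 20 above 0 and 23 below, and 81.2% of all tested genes also differed by less than 0.18. The scale understates the change of genes at low levels.

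The intervals bound how large a difference these libraries could hide. The 95% interval of 41 of the 43 genes lay within a 1.25-fold difference of FPKM + 1 either way. Of the 43 intervals, 36 included 0. The 2 genes whose intervals passed that limit were the activator subunit Psme2 (-0.67 to 0.45 on the log2 scale) and the assembly chaperone Psmg3 (-0.34 to -0.02). The interval of Psmg3 excluded 0, and its difference was the largest of the 43. At an unadjusted limma p under 0.05, 7 genes differed, 4 higher and 3 lower, which is 16.3% of the 43 against 26.9% of all tested genes. The 3 values of one group lay wholly above or below the 3 of the other for 12 genes, 6 above and 6 below. That is 27.9% of them, against 32.3% of all tested genes (16.5% above and 15.8% below).

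**Figure D1:**
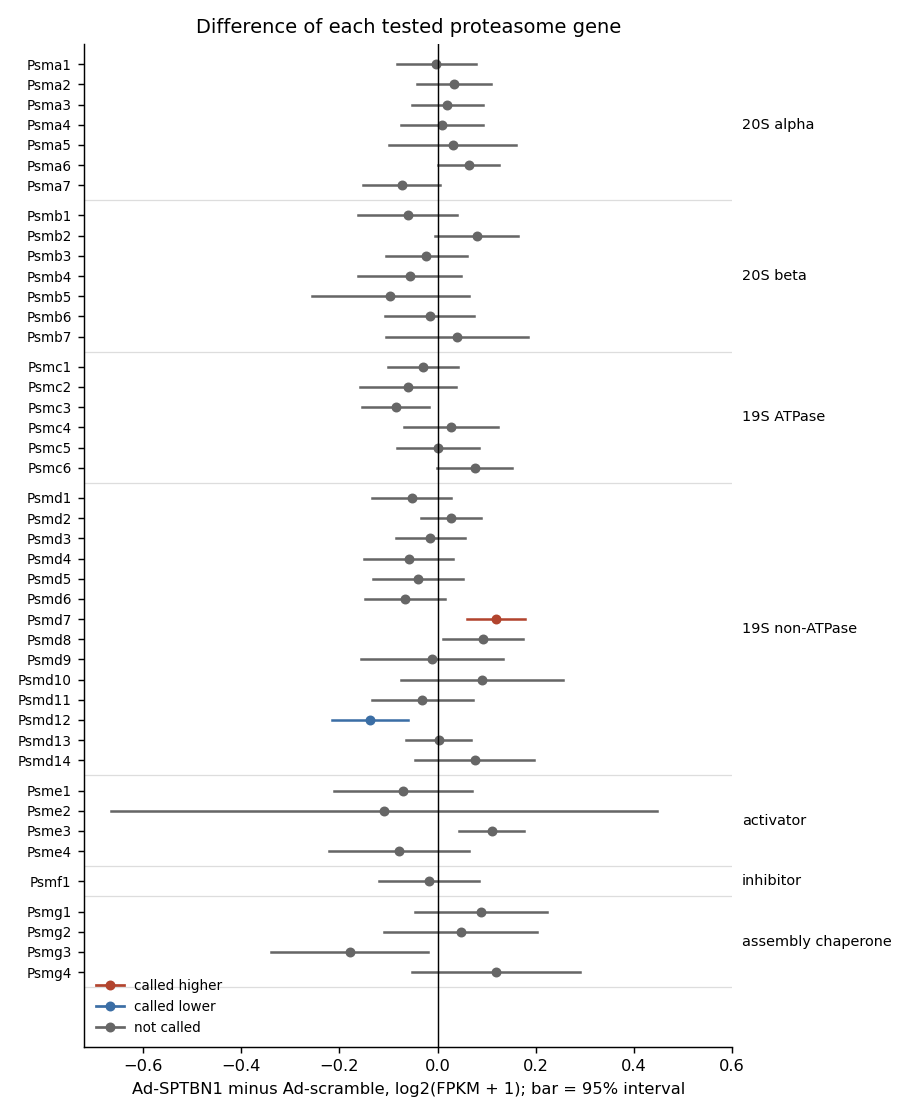
Log2 difference of each of the 43 tested proteasome genes, Ad-SPTBN1-labelled minus Ad-scramble-labelled libraries, on the log2(FPKM + 1) scale (x axis), by role (y axis). Points are limma estimates from 3 libraries per group and bars are 95% intervals. Only Psmd7 (red) and Psmd12 (blue) passed the adjusted threshold, and the interval of Psme2 is the widest.

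Summed transcript levels of the complex were close in both groups. The 14 tested 20S core genes together with Psma8 summed to 671.8 ± 14.8 FPKM in Ad-SPTBN1-labelled libraries and 674.3 ± 11.01 FPKM in Ad-scramble-labelled libraries (SD, n = 3 each). The 20 genes of the 19S group summed to 772.8 ± 2.45 FPKM in Ad-SPTBN1-labelled libraries and 771.4 ± 4.79 FPKM in Ad-scramble-labelled libraries. The ratio of the 19S sum to the 20S sum was 1.15 ± 0.0226 in Ad-SPTBN1-labelled libraries and 1.14 ± 0.0119 in Ad-scramble-labelled libraries. All 44 genes made up 0.567% ± 0.00378 of the summed FPKM in Ad-SPTBN1-labelled libraries and 0.564% ± 0.00320 in Ad-scramble-labelled libraries. In each of these sums the ranges of the groups overlapped.

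**Figure D2:**
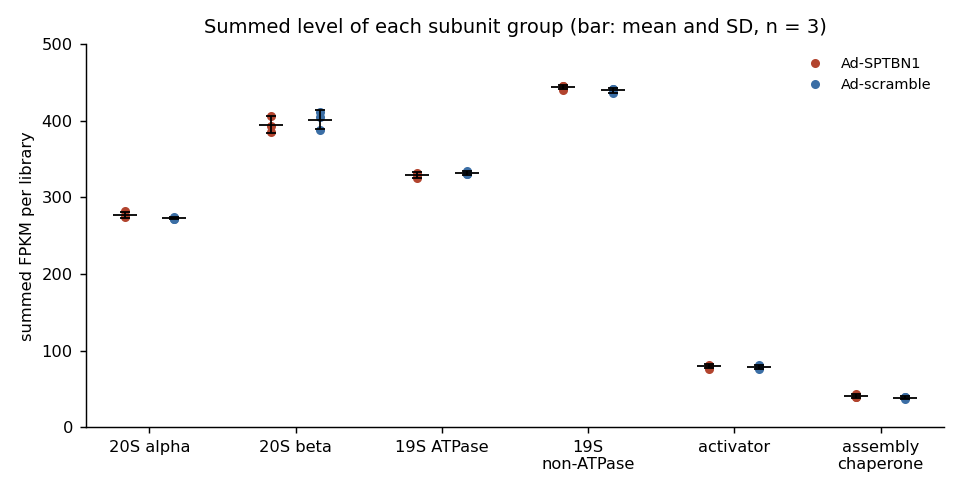
Summed FPKM of each role group of proteasome genes in each library (points), with Ad-SPTBN1-labelled libraries left of Ad-scramble-labelled libraries and the mean with its SD as bars. The 1 inhibitor gene is not drawn. The 19S non-ATPase sum was 444 ± 2.96 FPKM in Ad-SPTBN1-labelled libraries and 439.5 ± 3.26 FPKM in Ad-scramble-labelled libraries.

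The subunit genes were not at 1 level. Mean FPKM, a value per length of annotated exon, ran from 101.6 for Psmb1, the highest of the 44, to 1.89 for Psmg3 among the tested genes. Within the 20S core the tested genes spanned 4.38-fold, from Psmb7 at 23.2 FPKM to Psmb1. The 6 ATPase genes spanned 2.52-fold, from Psmc2 at 29.7 FPKM to Psmc5 at 74.6 FPKM. The widest span was among the 19S non-ATPase genes, from Psmd9 at 2.97 FPKM to Psmd2 at 73.7 FPKM. The lowest 3 of these, Psmd5, Psmd9 and Psmd10, encode chaperones of the ATPase ring that leave the finished particle. They measured 2.97 to 9.19 FPKM, below the 13.2 to 73.7 FPKM of the other 11. Annotated exons total 7230 bases for Psmd5, 7248 for Psmd9 and 1469 for Psmd10. FPKM divides by this length, and its part in the spans and the order was not tested. In the order of the levels, 32 of the 43 pairs of neighbours had ranges over the 6 libraries that overlapped. Whether neighbours keep their order within each library was not tested.

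**Figure D3:**
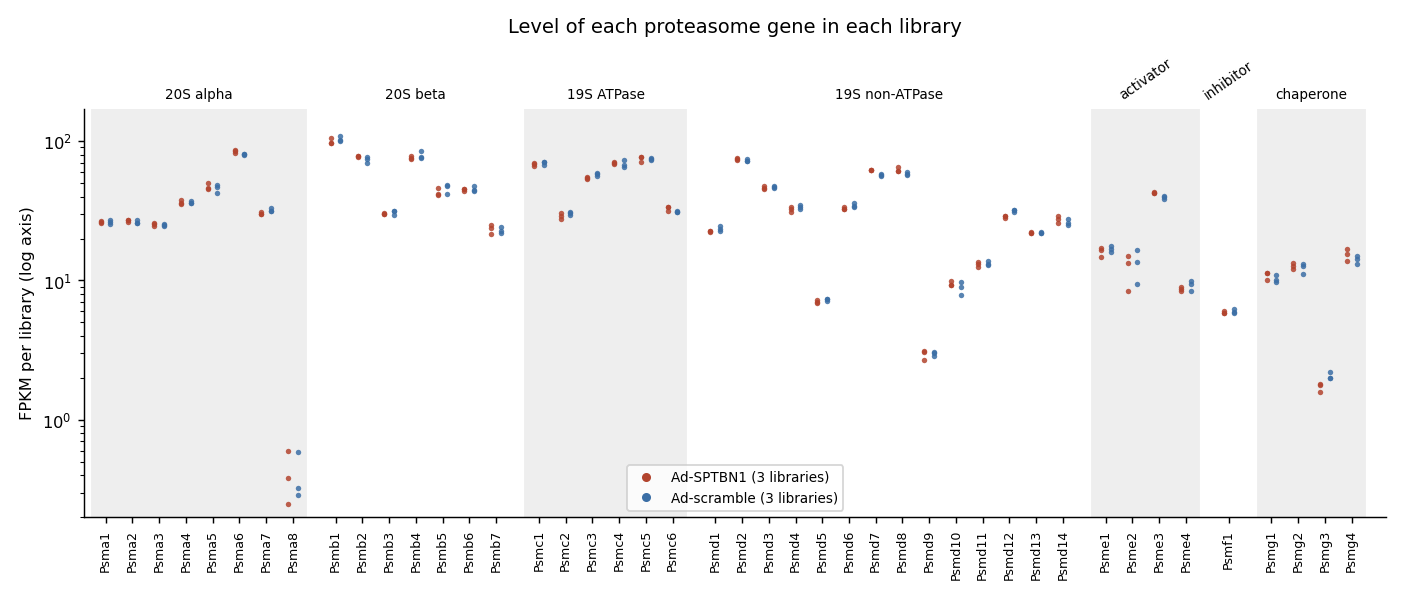
FPKM of the 44 proteasome genes in each library (y axis, log scale), by role, with the 3 libraries labelled Ad-SPTBN1 (red) left of the 3 labelled Ad-scramble (blue). Levels differed between genes, from 101.6 FPKM on average for Psmb1 to 0.405 for Psma8, far more than between the groups.

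The promoters of 36 of the 44 genes were matched in RefSeq (GRCm38.p6, 250 bases before to 50 after the gene start). The core of the antioxidant response element, TGACNNNGC, whose opening TGAC also begins the AP-1 site TGACTCA, was sought on both strands and found in 6 of the 36, or 16.7%, against 14.0% of 27025 genes with a promoter of the same length. CCAAT, sought likewise, was found in 12, or 33.3%, against 41.1%. The 6 matches are shown because they are the sequence to which the NFE2L1 background refers, with the 9 bases of the core in capitals and 5′ to 3′ on the strand that carries it. A match is a description of these letters and not evidence of binding. Distances are from the core's most upstream base on the gene's own strand to the RefSeq start. For Psmc6, Psmd12 and Psme4 that base is the last of the core as printed. The RefSeq start is not always the gene start in the deposited table. Counted likewise from the table's start, the core of Psmd9 begins 58746 bases inside the gene and that of Psme4 42 bases inside it. The other 4 lie 19 to 203 bases before that start.
Psmb5, chr14:54618024-54618052, minus strand, 47 bases before the start: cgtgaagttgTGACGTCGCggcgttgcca
Psmb6, chr11:70525338-70525366, plus strand, 9 bases before the start: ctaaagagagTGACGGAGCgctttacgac
Psmc6, chr14:45329587-45329615, minus strand, 227 bases before the start: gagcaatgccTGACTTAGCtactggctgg
Psmd9, chr5:123228149-123228177, plus strand, 31 bases before the start: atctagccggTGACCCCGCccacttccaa
Psmd12, chr11:107479278-107479306, minus strand, 247 bases before the start: tctgaggggggcaaatgTGACACAGCaga
Psme4, chr11:30771758-30771786, minus strand, from 7 bases before the start and across it: gctcttctggTGACGCTGCagccgcagcg
Of these 6 genes 1, Psmd12, fell and the other 5 did not pass the test, where 5.50% of all tested genes were called lower. The call of Psmd12 was lost when any 1 library other than Ad-scramble replicate 2 was left out. A link between the element and these differences was not tested. The log2 differences of the other 5 were -0.10 for Psmb5, -0.02 for Psmb6, 0.08 for Psmc6, -0.01 for Psmd9 and -0.08 for Psme4.

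No alpha ring gene of the 20S core passed the test. Of 7 tested, limma called 0, voom on recovered reads called 0, and 1 had an unadjusted p under 0.05. Their median log2 difference was 0.02, between -0.07 and 0.06. Psma6, the most abundant of them, measured 84.8, 82.5 and 86.0 FPKM in Ad-SPTBN1-labelled libraries, against 80.1, 80.9 and 81.2 FPKM in Ad-scramble-labelled libraries. All 3 libraries labelled Ad-SPTBN1 lay above the others, but the log2 difference of 0.06 ± 0.03 (SE) did not pass (limma adjusted p = 0.174). Psma7 measured 30.0, 31.0 and 29.8 FPKM in Ad-SPTBN1-labelled libraries, against 31.4, 31.3 and 33.0 FPKM in Ad-scramble-labelled libraries. Here all 3 lay below, with a log2 difference of -0.07 ± 0.03 (limma adjusted p = 0.214). Psma1 to Psma5 averaged 25.1 to 46.6 FPKM, with overlapping groups and log2 differences between -0.0027 and 0.03. Psma8, the testis paralog of Psma7, was listed at 0.248, 0.593 and 0.384 FPKM in Ad-SPTBN1-labelled libraries and 0.593, 0.324 and 0.287 FPKM in Ad-scramble-labelled libraries, about 12 to 28 reads a library.

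The beta ring genes, which include the catalytic subunits, were not called either. Of 7 tested, limma called 0, voom called 0, and 0 had an unadjusted p under 0.05, with a median log2 difference of -0.02. Psmb1, a structural subunit of the ring and the highest of all proteasome genes, measured 105.2, 96.2 and 96.9 FPKM in Ad-SPTBN1-labelled libraries, against 100.9, 102.4 and 107.9 FPKM in Ad-scramble-labelled libraries. The groups overlapped (log2 difference -0.06 ± 0.04, limma adjusted p = 0.416). Psmb2, another subunit without a catalytic site, had the highest difference of the ring, at 78.2, 78.4 and 76.8 FPKM in Ad-SPTBN1-labelled libraries, against 69.9, 74.5 and 76.4 FPKM in Ad-scramble-labelled libraries. Its groups just failed to overlap, and the log2 difference of 0.08 ± 0.04 did not pass (limma adjusted p = 0.215).

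The 3 catalytic genes of the constitutive core each had overlapping groups. Psmb5, which carries the chymotrypsin-like site, measured 46.5, 41.0 and 41.6 FPKM in Ad-SPTBN1-labelled libraries, against 41.9, 48.4 and 48.0 FPKM in Ad-scramble-labelled libraries (log2 difference -0.10 ± 0.07, limma adjusted p = 0.418). Psmb6, the caspase-like subunit, measured 45.3, 43.9 and 45.3 FPKM in Ad-SPTBN1-labelled libraries, against 44.4, 47.9 and 43.97 FPKM in Ad-scramble-labelled libraries. Psmb7, the trypsin-like subunit, measured 25.2, 21.5 and 24.0 FPKM in Ad-SPTBN1-labelled libraries, against 24.1, 22.0 and 22.5 FPKM in Ad-scramble-labelled libraries. The remaining 2, Psmb3 and Psmb4, differed by -0.02 and -0.06. Immunoproteasome genes, which replace the catalytic subunits under interferon, were lower in level. Psmb8, Psmb9 and Psmb10 summed to 15.1 ± 1.66 FPKM in Ad-SPTBN1-labelled libraries and 15.6 ± 0.407 FPKM in Ad-scramble-labelled libraries. Psmb5, Psmb6 and Psmb7 summed to 111.4 ± 5.30 FPKM in Ad-SPTBN1-labelled libraries and 114.4 ± 3.98 FPKM in Ad-scramble-labelled libraries. The ratio of the constitutive to the immunoproteasome sum was 7.42 ± 0.596 in Ad-SPTBN1-labelled libraries and 7.36 ± 0.362 in Ad-scramble-labelled libraries (SD, n = 3 each).

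Some core genes have near-identical copies, and how the authors counted shared reads is not given in the sources used here. For Psmb5, 54.1% of its 50-base words also occur in other genes, among them Gm3375, which was listed at 27.0 FPKM in Ad-SPTBN1-labelled libraries and 28.6 FPKM in Ad-scramble-labelled libraries. For Psma5 the share is 49.96%. For Psma3 it is 15.4%, with Gm13835 at 53.2 FPKM in Ad-SPTBN1-labelled libraries and 56.2 FPKM in Ad-scramble-labelled libraries. The core genes Psmb3 and Psma4 share 17.8% and 14.35%, and outside the core Psmd2 and Psmc1 share 17.8% and 14.1%. The values of these genes are uncertain to that extent. Across all 44 genes, 19 share no such word and 4 share over 20%.

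The 6 ATPase genes of the 19S base gave 0 calls by limma and 0 by voom, and 1 had an unadjusted p under 0.05, with a median log2 difference of -0.01. Psmc5, the most abundant, measured 76.3, 76.6 and 71.1 FPKM in Ad-SPTBN1-labelled libraries, against 74.95, 73.0 and 75.9 FPKM in Ad-scramble-labelled libraries. Its log2 difference was 0.00085 ± 0.04 (limma adjusted p = 0.993), and its groups overlapped. Psmc6 measured 33.5, 31.6 and 33.4 FPKM in Ad-SPTBN1-labelled libraries, against 30.8, 31.1 and 31.5 FPKM in Ad-scramble-labelled libraries (log2 difference 0.08 ± 0.03, limma adjusted p = 0.191). Psmc3 had the lowest difference, at 55.1, 53.3 and 54.0 FPKM in Ad-SPTBN1-labelled libraries, against 56.0, 58.7 and 57.7 FPKM in Ad-scramble-labelled libraries. The groups of Psmc6 and of Psmc3 did not overlap, in opposite directions, and the log2 difference of Psmc3, -0.09 ± 0.03, did not pass (limma adjusted p = 0.112). Psmc1, Psmc2 and Psmc4 had overlapping groups and log2 differences of -0.03, -0.06 and 0.03. These 6 subunits form 1 ring.

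Of the 14 non-ATPase genes of the 19S group 2 were called, or 14.3%, near the 11.0% of all tested genes. Both encode subunits of the lid. Psmd7 (ENSMUSG00000039067, GRCm38 chr8:107580381-107588464, minus strand) encodes the partner that holds the deubiquitinase Psmd14. Psmd7 measured 62.6, 62.4 and 61.7 FPKM in Ad-SPTBN1-labelled libraries, against 57.3, 56.3 and 58.0 FPKM in Ad-scramble-labelled libraries. Every library labelled Ad-SPTBN1 lay above every library labelled Ad-scramble, and the spread within each group was under the gap between them. Psmd7 rose by 0.12 ± 0.03 on the log2 scale (95% interval 0.06 to 0.18, limma adjusted p = 0.0266), a mean 8.78% higher. The values rest on 2320 to 2696 reads a library, and their spread within groups was 0.332 of a chi-square per degree of freedom, where 1 is counting noise alone.

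Psmd12 (ENSMUSG00000020720, GRCm38 chr11:107479484-107504362, plus strand) encodes a scaffold subunit of the lid. Psmd12 measured 29.2, 29.02 and 27.9 FPKM in Ad-SPTBN1-labelled libraries, against 32.3, 30.8 and 32.0 FPKM in Ad-scramble-labelled libraries. Every library labelled Ad-SPTBN1 lay below every library labelled Ad-scramble. Psmd12 fell by 0.14 ± 0.03 on the log2 scale (95% interval -0.22 to -0.06, limma adjusted p = 0.0407), and its mean change was -9.42%. The values rest on 1363 to 1619 reads a library. Neither Psmd7 nor Psmd12 shares a 50-base word with another gene. Both calls lay near the threshold: without any 1 library other than Ad-scramble replicate 3 the adjusted p of Psmd7 was 0.0666 to 0.0874, and without any 1 other than Ad-scramble replicate 2 that of Psmd12 was 0.0808 to 0.124. Without a trend in the prior variance the adjusted p was 0.0834 for Psmd7 and 0.0844 for Psmd12, and with no minimum level it was 0.0864 for Psmd12.

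The other 12 non-ATPase genes were not called. Psmd2, a scaffold of the base and the most abundant of the 14, measured 72.9, 74.9 and 75.3 FPKM in Ad-SPTBN1-labelled libraries, against 72.5, 74.0 and 72.4 FPKM in Ad-scramble-labelled libraries (log2 difference 0.03 ± 0.03, limma adjusted p = 0.565). Psmd8, a lid subunit, measured 64.8, 61.0 and 60.9 FPKM in Ad-SPTBN1-labelled libraries, against 58.5, 59.5 and 56.8 FPKM in Ad-scramble-labelled libraries. Its groups did not overlap, but the log2 difference of 0.09 ± 0.03 did not pass (limma adjusted p = 0.142). Psmd14, the deubiquitinase that works with Psmd7, averaged 27.7 ± 1.58 FPKM in Ad-SPTBN1-labelled libraries and 26.2 ± 1.31 FPKM in Ad-scramble-labelled libraries (SD, n = 3 each), with overlapping groups. Psmd1, the other scaffold of the base, and Psmd6, a lid subunit, lay lower in all 3 libraries labelled Ad-SPTBN1, by log2 differences of -0.05 and -0.07 that did not pass (limma adjusted p = 0.378 and 0.268).

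The remaining lid genes Psmd3, Psmd11 and Psmd13 differed by -0.01, -0.03 and 0.0024 on the log2 scale, and the ubiquitin receptor gene Psmd4 by -0.06, all with overlapping groups. Psmd13 had the smallest spread within groups of the 43 relative to counting noise, at 21.9, 22.0 and 22.4 FPKM in Ad-SPTBN1-labelled libraries and 22.0, 22.2 and 21.9 FPKM in Ad-scramble-labelled libraries. The assembly chaperones of the ATPase ring, Psmd5, Psmd9 and Psmd10, differed by -0.04, -0.01 and 0.09, again with overlapping groups. Of the words of Psmd9, 24.95% also occur in other genes and an antisense gene covers 25.5% of its exon bases on the opposite strand, which makes its value uncertain.

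Of the 4 activator genes, whose products cap the core without the 19S particle, limma called 0 and voom called 1, Psme3, with 1 at an unadjusted p under 0.05. Psme3 encodes the nuclear activator known as PA28γ. Psme3 measured 43.4, 42.2 and 42.5 FPKM in Ad-SPTBN1-labelled libraries, against 38.7, 40.2 and 39.6 FPKM in Ad-scramble-labelled libraries. All 3 libraries labelled Ad-SPTBN1 lay above the others, at a mean 8.11% higher, and the log2 difference of 0.11 ± 0.03 missed the threshold (limma adjusted p = 0.0507). With a minimum mean of 5 FPKM, a robust prior, library weights or voom it passed, at an adjusted p of 0.0370 to 0.0499. Psme4, the nuclear activator that acts on acetylated histones, measured 8.74, 8.37 and 8.95 FPKM in Ad-SPTBN1-labelled libraries, against 9.95, 8.40 and 9.39 FPKM in Ad-scramble-labelled libraries. Its groups overlapped (log2 difference -0.08 ± 0.06). Psme4 lies 503550 bases from Sptbn1 on chromosome 11.

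Psme1 and Psme2 encode the partners of the cytosolic activator that interferon raises, and lie 5911 bases apart on chromosome 14 in converging orientation. Psme1 measured 14.7, 16.5 and 17.0 FPKM in Ad-SPTBN1-labelled libraries, against 16.9, 16.1 and 17.7 FPKM in Ad-scramble-labelled libraries (log2 difference -0.07 ± 0.06). Psme2 measured 13.3, 14.9 and 8.38 FPKM in Ad-SPTBN1-labelled libraries, against 13.6, 16.6 and 9.46 FPKM in Ad-scramble-labelled libraries. Its spread within a group was 31.1 times that of counting noise (chi-square per degree of freedom), the highest of the 43 genes, whose median was 1.52. The log2 difference of -0.11 ± 0.24 was within that spread (limma adjusted p = 0.817).

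The reads of Psme2 ran opposite to those of a near-identical gene, Psme2b, between libraries of a group. The coding sequences of Psme2 and Psme2b, taken as the longest reading frames of their GENCODE M21 transcripts, are 720 bases each and 99.3% identical. The 5 differences are C312T, A369G, C489T, C519T and C543T, with the Psme2 base first, the Psme2b base last and positions counted from 1 at the A of the start codon of Psme2. The stretch around A369G, positions 355 to 383, shows how little separates the copies, with the differing base in capitals.
Psme2: attctggtaatcacAtggatccagcacct
Psme2b: attctggtaatcacGtggatccagcacct
Recovered reads on Psme2 numbered 446, 497 and 273 in Ad-SPTBN1-labelled libraries, against 453, 532 and 309 in Ad-scramble-labelled libraries. Those on Psme2b numbered 355, 294 and 456 in Ad-SPTBN1-labelled libraries, against 375, 340 and 538 in Ad-scramble-labelled libraries. In each group the library with the fewest reads on Psme2 had the most on Psme2b. The sums were steadier, at 801, 791 and 729 reads in Ad-SPTBN1-labelled libraries and 828, 872 and 847 reads in Ad-scramble-labelled libraries, with a spread of 1.32 on the same chi-square scale. Replicates 1, 2 and 3 had 55.7%, 62.8% and 37.5% of the sum on Psme2 in Ad-SPTBN1-labelled libraries, and 54.7%, 61.0% and 36.5% in Ad-scramble-labelled libraries.

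Scaled to library size, the sum was 42.02, 41.8 and 39.5 reads for each 1000000 scaling reads in Ad-SPTBN1-labelled libraries, against 43.7, 47.9 and 45.7 in Ad-scramble-labelled libraries. All 3 libraries labelled Ad-SPTBN1 lay below the others. Fitted as 1 gene, an alternative chosen after the data were seen, the sum had a log2 difference of -0.15 ± 0.04 (95% interval -0.25 to -0.05) that did not pass (limma adjusted p = 0.0708).

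**Figure D4:**
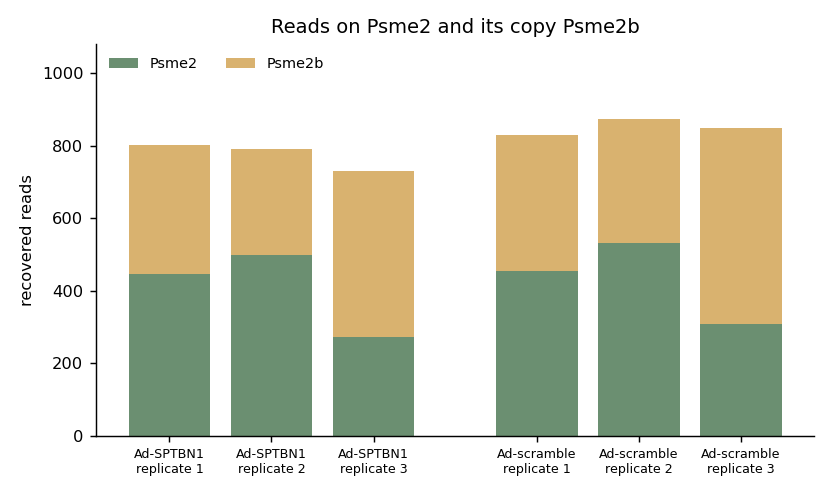
Recovered reads (y axis) on Psme2 (lower part of each bar) and on its near-identical copy Psme2b (upper part) in each library, so that a bar's height is their sum, with the 3 libraries labelled Ad-SPTBN1 left of the 3 labelled Ad-scramble. Where Psme2 is lowest (273 and 309 reads) Psme2b is highest (456 and 538 reads), and the sums stay between 729 and 872 reads.

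The inhibitor and the core chaperones were also without a call. Psmf1, which binds the core and restrains it in vitro, measured 5.86, 5.86 and 6.003 FPKM in Ad-SPTBN1-labelled libraries, against 6.26, 5.90 and 5.82 FPKM in Ad-scramble-labelled libraries, with overlapping groups (limma adjusted p = 0.835). Of the 4 chaperone genes, which guide the assembly of the alpha ring in the pairs Psmg1 with Psmg2 and Psmg3 with Psmg4, limma called 0 and voom called 0, with 1 at an unadjusted p under 0.05. Psmg3, the lowest of the tested proteasome genes, measured 1.80, 1.77 and 1.57 FPKM in Ad-SPTBN1-labelled libraries, against 2.21, 2.01 and 2.00 FPKM in Ad-scramble-labelled libraries. Its groups did not overlap, its log2 difference was -0.18 ± 0.07 on 84 to 121 reads a library, and it did not pass (limma adjusted p = 0.143). Its partner Psmg4 measured 16.8, 15.5 and 13.9 FPKM in Ad-SPTBN1-labelled libraries, against 13.1, 14.2 and 14.9 FPKM in Ad-scramble-labelled libraries, on 138 to 178 reads. Those groups overlapped (log2 difference 0.12 ± 0.07, limma adjusted p = 0.352). Psmg1 and Psmg2 differed by 0.09 and 0.05, with overlapping groups.

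Genes around the proteasome were read from lists of named genes. Of 12 tested proteasome proteins without a Psm name, limma called 0 and voom 1 (Ube3c), with 3 at an unadjusted p under 0.05 and a median log2 difference of 0.03. The most abundant, Txnl1, a thioredoxin-like protein of the 19S particle, averaged 59.4 ± 1.89 FPKM in Ad-SPTBN1-labelled libraries and 57.6 ± 0.337 FPKM in Ad-scramble-labelled libraries (SD, n = 3 each). Zfand2a, a zinc finger protein that joins the proteasome under stress, averaged 51.1 ± 1.22 FPKM in Ad-SPTBN1-labelled libraries and 47.9 ± 1.11 FPKM in Ad-scramble-labelled libraries (limma adjusted p = 0.113). Of the 3 tested immunoproteasome genes limma and voom called 0, with 0 at an unadjusted p under 0.05. The most abundant, Psmb10, averaged 9.68 ± 1.17 FPKM in Ad-SPTBN1-labelled libraries and 9.67 ± 0.401 FPKM in Ad-scramble-labelled libraries.

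In the NFE2L1 pathway limma called 1 of 11 genes lower and 0 higher, or 9.09%, near the 11.0% of all tested genes. The gene that fell was Maff, a small Maf partner of such factors, at 148.5 ± 3.72 FPKM in Ad-SPTBN1-labelled libraries and 161.0 ± 1.73 FPKM in Ad-scramble-labelled libraries (log2 difference -0.12 ± 0.03, limma adjusted p = 0.0373). The call was lost without any 1 of the 6 libraries, with no minimum level, with no trend and with a replicate block. Mafg, another small Maf gene, averaged 32.4 ± 0.165 FPKM in Ad-SPTBN1-labelled libraries and 29.96 ± 0.666 FPKM in Ad-scramble-labelled libraries, without overlap (log2 difference 0.11 ± 0.03, limma adjusted p = 0.0525). It was named after its values were seen, since voom called it, and the list held 2 calls with a minimum of 5 FPKM, with library weights and with voom. Of 6 genes for ubiquitin and its E1 enzymes 1 rose (16.7%, against 5.54% called higher of all tested genes), Uba1, the main ubiquitin-activating enzyme. Uba1 averaged 95.1 ± 1.22 FPKM in Ad-SPTBN1-labelled libraries and 85.8 ± 2.45 FPKM in Ad-scramble-labelled libraries (log2 difference 0.15 ± 0.03, limma adjusted p = 0.0219). With 1 library left out the call held only where that was Ad-scramble replicate 2. It was also lost with no minimum level, with no trend and with a replicate block.

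Among 11 genes of p97 and the shuttle factors that carry ubiquitinated proteins to the proteasome, 2 fell (18.2%, against 5.50% called lower of all tested genes) and 0 rose. Both were ubiquilins. Ubqln2 averaged 33.2 ± 0.394 FPKM in Ad-SPTBN1-labelled libraries and 39.0 ± 0.253 FPKM in Ad-scramble-labelled libraries (log2 difference -0.23 ± 0.03, limma adjusted p = 0.00358). Ubqln4 averaged 10.7 ± 0.824 FPKM in Ad-SPTBN1-labelled libraries and 14.3 ± 0.0926 FPKM in Ad-scramble-labelled libraries (log2 difference -0.40 ± 0.05, limma adjusted p = 0.00609). The third ubiquilin tested, Ubqln1, had overlapping groups (limma adjusted p = 0.939). Of 6 tested muscle ubiquitin ligases limma called 0 and voom 1, with 2 at an unadjusted p under 0.05. Limma called 1 with a minimum of 5 FPKM, with a robust prior, with library weights and with either other scaling. The most abundant, Nedd4, averaged 83.5 ± 2.02 FPKM in Ad-SPTBN1-labelled libraries and 90.9 ± 2.58 FPKM in Ad-scramble-labelled libraries (limma adjusted p = 0.0535), and Fbxo30 averaged 41.0 ± 0.790 FPKM in Ad-SPTBN1-labelled libraries and 40.9 ± 1.47 FPKM in Ad-scramble-labelled libraries. The other 4 listed ligases were below the level for testing. Trim63, the muscle ligase MuRF1, was listed at 1.13, 1.15 and 1.30 FPKM in Ad-SPTBN1-labelled libraries and 0.576, 0.714 and 0.399 FPKM in Ad-scramble-labelled libraries, and Trim54 and Trim55 were also higher in every Ad-SPTBN1-labelled library. Trim54 was near the floor, at a mean of 0.234 FPKM in Ad-SPTBN1-labelled libraries and 0.0998 FPKM in Ad-scramble-labelled libraries. The last of the 4, Fbxo40, averaged 0.309 FPKM in Ad-SPTBN1-labelled libraries and 0.359 FPKM in Ad-scramble-labelled libraries, with overlapping groups. Of all tested genes, 16.5% had every Ad-SPTBN1-labelled library above the others, a share not computed for genes below the level for testing. These 4 were named after their values were seen.

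Markers of cell types and some transcripts that resemble ribosomal RNA moved with the groups, and their part in the differences of Psmd7 and Psmd12 was not tested. For the counts that follow, 5.54% of all tested genes were called higher and 5.50% lower. Of 10 tested cardiomyocyte markers 7 rose and 0 fell, and the 15 listed summed to 132.2 to 137.9 FPKM in Ad-SPTBN1-labelled libraries and 80.6 to 86.9 FPKM in Ad-scramble-labelled libraries. The titin gene Ttn was low, at 0.175 ± 0.00755 FPKM in Ad-SPTBN1-labelled libraries and 0.0871 ± 0.00225 FPKM in Ad-scramble-labelled libraries, and none of the 15 was at 0. Of 12 fibroblast markers 8 fell and 0 rose by limma, and voom called 10, Col1a1 and Dcn among them. The limma count was 3 to 5 without any 1 library other than Ad-scramble replicate 2. It was 4 with no minimum level or with a replicate block, and 5 with no trend. The exception in sign was the collagen gene Col1a1, the most abundant of them, at 2402 ± 103 FPKM in Ad-SPTBN1-labelled libraries and 2078 ± 152 FPKM in Ad-scramble-labelled libraries (limma adjusted p = 0.0560). The other 11 each had a negative log2 difference and summed to 2141 to 2212 FPKM in Ad-SPTBN1-labelled libraries and 2308 to 2334 FPKM in Ad-scramble-labelled libraries. Of 6 epicardial markers 4 rose, with sums of 107.5 to 110.2 FPKM in Ad-SPTBN1-labelled libraries and 83.2 to 86.8 FPKM in Ad-scramble-labelled libraries. Of 6 smooth muscle markers 2 fell, with sums of 1681 to 1708 FPKM in Ad-SPTBN1-labelled libraries and 1723 to 1747 FPKM in Ad-scramble-labelled libraries. Of 6 endothelial and 3 tested macrophage markers limma called 0, with 2 and 0 at an unadjusted p under 0.05 and 1 and 0 called by voom. Endothelial markers summed to 126.1 to 132.8 FPKM in Ad-SPTBN1-labelled libraries and 119.2 to 127.1 FPKM in Ad-scramble-labelled libraries, and macrophage markers to 11.4 to 12.3 FPKM in Ad-SPTBN1-labelled libraries and 12.2 to 12.5 FPKM in Ad-scramble-labelled libraries. The macrophage genes Adgre1 and Ptprc were each listed at 0 in at least 1 library. Of 5 listed transcripts that are or resemble ribosomal RNA 3 rose, the most abundant being CT010467.1 at 393.9 ± 42.4 FPKM in Ad-SPTBN1-labelled libraries and 74.4 ± 4.40 FPKM in Ad-scramble-labelled libraries. Lars2, the mitochondrial leucyl-tRNA synthetase gene, had the largest difference of the list, at 26.2 ± 5.25 FPKM in Ad-SPTBN1-labelled libraries and 1.50 ± 0.103 FPKM in Ad-scramble-labelled libraries (log2 difference 3.42 ± 0.12). The mitochondrial ribosomal RNAs mt-Rnr1 and mt-Rnr2 had overlapping groups, with log2 differences of 0.0070 and -0.07.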

How the data were processed

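RNA-seq of 6 libraries was analysed from 1 table of FPKM values deposited by the authors, with 31115 genes and 1 column per library. Per the labels' protocols, TRIzol RNA was made into libraries with a NEBNext Ultra kit. The build is GRCm38 or mm10 per the submitters' processing notes, while the aligner, counter, annotation and strand setting were not given in the sources used here. Columns were tied to libraries through the sample number in the labels. Genes whose mean reached 1 FPKM, 12608 in all, were put on the log2(FPKM + 1) scale and fitted with limma (version 3.58.1, R 4.3.3), the prior variance following a trend. P-values were adjusted over these genes by Benjamini and Hochberg's method. A call is an adjusted p under 0.05, and no rescaling was applied.

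Reads were recovered from FPKM with GENCODE M21 exon lengths, where 31065 of the gene IDs were found. In each library 95.5% to 95.7% of values were whole numbers of reads within 0.1, and of the proteasome genes' values 92.8%. For Psma7 and Psmg2 none was whole, and for Psma7, Psma8 and Psmb1 the gene's ends in the table differ from that release, so their reads are approximate. The recovered reads exceed the totals by which the values were scaled and are not the depth itself. Sharing of sequence was counted in 50-base words of annotated transcripts.

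The genes and the 13 companion and marker lists were chosen with earlier results of these data known. Values are given in every library for called genes, the most abundant gene of each role and the largest and smallest difference in it. Other genes are given in full where their role is described, a choice made after values were seen, as for Col1a1 and some companion genes. From each companion list up to 4 called genes are named, or up to 2 of the most abundant. Alternatives were other pseudocounts, minimum levels, scalings, priors, weights for libraries, a replicate block, and each library left out. Voom on recovered reads and the summed fit of Psme2 with Psme2b were added after the data were seen.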

Additional observations from a re-analysis of the deposited data

How the results depend on the processing

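Of 772 values of tested proteasome genes under alternatives, 726 kept direction and call, 15 lost the call, 4 gained it and 27 changed sign, the last all of genes without a call. Psmd7 and Psmd12 kept their direction throughout. The count of 1391 genes was 665 with no minimum mean, 730 with a replicate block, 2145 with voom and 622 to 864 with 1 library left out. Of proteasome genes, 1 was called higher, against 2 with a minimum of 5 FPKM, a robust prior, library weights or voom (Psmd7 and Psme3), 0 with no trend or a replicate block, and 0 to 1 with 1 library left out. The 1 called lower became 0 with no minimum, no trend or a replicate block, and 0 to 1 with 1 library left out. With the block the adjusted p was 0.0788 for Psmd7 and 0.0882 for Psmd12. Over tested genes, same-numbered libraries' deviations correlated at 0.00586, -0.0338 and 0.0104, so the numbers were not taken to pair libraries, although the share of reads on Psme2 was alike in same-numbered libraries and its FPKM lower in each such pair. Signs changed for Psma1 with library weights (0.0083), for Psmc5 with median-of-ratios scaling (-0.00069), centring (-0.0058) and library weights (-0.0024), and for Psmd13 with centring (-0.0043). With 1 library left out the log2 difference ran from -0.028 to 0.022 for Psma1, -0.021 to 0.031 for Psma4, -0.021 to 0.069 for Psma5, -0.039 to 0.021 for Psmb6, -0.0090 to 0.10 for Psmb7, -0.0073 to 0.069 for Psmc4, -0.018 to 0.035 for Psmc5, -0.030 to 0.0015 for Psmd3, -0.039 to 0.034 for Psmd9, -0.057 to 0.00094 for Psmd11, -0.0073 to 0.0092 for Psmd13, -0.31 to 0.12 for Psme2, -0.036 to 0.0088 for Psmf1 and -0.022 to 0.090 for Psmg2. The causes were not tested. Depth limits Psma8, at 12 to 28 reads, and Psmg3, at 84 to 121.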
